A study of Mus musculus with 8 samples.

Results

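miR-191 and miR-425 are a pair of microRNAs whose hairpins lie next to each other on mouse chromosome 9. Their sequences were taken as every distinct sequence of the deposited table with an annotation hit to a mature arm of either microRNA (mmu-miR-191-5p and mmu-miR-425-5p, as the table names those found). This gave 11 of the 11568 distinct sequences, of which 10 matched miR-191-5p and 1 matched miR-425-5p. No sequence (0) carried a mature hit to miR-191-3p or miR-425-3p. The table lists 652 mature microRNA sequences and 287 sequences that hit a microRNA precursor alone.

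The RNA came from MIN6B1, a mouse insulinoma line used as a pancreatic beta-cell model. Cells received, by lipofection, either the control plasmid or one that expresses HENMT1ΔC-T6B, a methyltransferase fusion, and were kept for 24 to 72 hours. The RNA of each plasmid was either left non-oxidized or oxidized with sodium periodate, which made 4 groups of 2 libraries. All groups share the cell line and the transfection, neither the promoter of the plasmids nor the hour of each library is given in the sources used here, and nothing states that the 2 libraries of a group came from separate cultures, so p-values measure the spread between libraries, which may be technical.

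MicroRNAs are cut from a hairpin as a duplex, and 1 strand is kept by an Argonaute protein, where bases 2 to 8 of the strand (the seed) pair with target mRNAs. Periodate opens the sugar at an RNA's 3′ end when it carries 2 free hydroxyl groups, and such an end cannot be ligated to a sequencing adapter. HENMT1 is the animal enzyme that adds a methyl group to the 2′ hydroxyl at the 3′ end of small RNAs, which blocks this reaction, and T6B is a peptide from the TNRC6B protein that binds Argonaute. A microRNA that stays countable after oxidation is the readout of the assay. miR-191-5p is abundant in many tissues and is a common reference microRNA in expression assays.

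The reference sequences are shown because the results turn on where each sequence ends within its hairpin. They are from RefSeq, build GRCm38.p6, chromosome 9, plus strand. Capitals in the hairpins mark the mature arms. The Mir191 hairpin spans chr9:108568319-108568392 and the Mir425 hairpin spans chr9:108568777-108568861.
Mir191: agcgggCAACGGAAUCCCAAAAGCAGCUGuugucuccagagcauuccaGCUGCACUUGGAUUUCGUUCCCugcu
Mir425: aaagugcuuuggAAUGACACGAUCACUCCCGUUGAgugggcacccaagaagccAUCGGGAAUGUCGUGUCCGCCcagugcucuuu
The 4 mature arms follow with the seed in capitals.
miR-191-5p: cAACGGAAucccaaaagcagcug
miR-191-3p: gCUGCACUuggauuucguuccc
miR-425-5p: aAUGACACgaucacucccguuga
miR-425-3p: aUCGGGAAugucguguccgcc
The 4 seeds differ from each other. In the RefSeq table the miR-425-5p seed occurs in 1 other mature microRNA, miR-489-3p, and the other seeds occur in no other entry.

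The hairpins are 384 bases apart. In the GENCODE M21 annotation both lie within the lincRNA gene 4833445I07Rik (chr9:108567533-108569174, plus strand), in exonic sequence of its long exon. The Mir425 hairpin ends 1024 bases before the protein-coding gene Dalrd3. An annotated minus-strand microRNA gene, Gm24083 (chr9:108568295-108568414), overlaps Mir191. The build behind the deposited table is not given in the sources used here, and these positions come from matching the sequences to the RefSeq hairpins.

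Of the 10 miR-191-5p sequences, 6 begin at the RefSeq start and form a ladder of 3′ ends from 18 to 23 nucleotides (nt). They are shown as DNA letters, as deposited, with the last base in capitals.
18 nt: caacggaatcccaaaagC
19 nt: caacggaatcccaaaagcA
20 nt: caacggaatcccaaaagcaG
21 nt: caacggaatcccaaaagcagC
22 nt: caacggaatcccaaaagcagcT
23 nt: caacggaatcccaaaagcagctG
The 23-nt form has the RefSeq length, and each shorter form lacks bases at its 3′ end alone. A further pair begins 1 base downstream, which moves the seed to ACGGAAU, a seed that 0 RefSeq mature microRNAs in the table have.
start +1, 21 nt: aacggaatcccaaaagcagcT
start +1, 22 nt: aacggaatcccaaaagcagctG
The last pair has the substitution C1T, counted from the 5′ end of the RefSeq mature sequence, and 0 genomic matches in the deposited table. The only miR-425-5p sequence with a mature hit has the RefSeq ends.
miR-425-5p, 23 nt: aatgacacgatcactcccgttgA

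The listing itself depends on the outcome of the assay. Every listed sequence has at least 2 counts in each oxidized methyltransferase library and a sum of at least 10 over the pair, while counts in the other groups go down to 0. Sequences lost from the oxidized methyltransferase RNA are therefore not in view here. The listed counts summed to 5387014 and 6641250 in non-oxidized control RNA, 438363 and 295094 in oxidized control RNA, 3654639 and 4887022 in non-oxidized methyltransferase RNA, and 3100971 and 2446036 in oxidized methyltransferase RNA. The beta-cell microRNA miR-375-3p made up 8.42 to 10.5% of what was listed for non-oxidized control RNA. Of 10 markers of liver, muscle, neurons, blood cells and endothelium, 3 had a listed sequence, and their sum was at most 0.0326% in any library.

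miR-191-5p was a minor part of each library. Its 10 sequences made up 0.605 and 0.624% of the counts listed for non-oxidized control RNA (95% Wilson intervals 0.598 to 0.611% and 0.618 to 0.630%) and 0.780 and 0.804% in non-oxidized methyltransferase RNA (0.772 to 0.790% and 0.796 to 0.812%). After oxidation the share was 0.0422 and 0.0393% with the control plasmid (0.0365 to 0.0487% and 0.0328 to 0.0471%) and 0.346 and 0.378% with the methyltransferase (0.340 to 0.353% and 0.370 to 0.385%). These intervals cover counting error only. The groups did not overlap in any of the 4 pairings, and the exact two-sided permutation test of 2 against 2 libraries gave its smallest possible p of 0.333 in each (Benjamini-Hochberg adjusted 0.444 over 16 such tests). Among mature microRNA counts alone the order was another one: the share was 0.926 and 0.946% in non-oxidized control RNA, 1.343 and 1.147% in oxidized control RNA, 1.27 and 1.29% in non-oxidized methyltransferase RNA, and 0.525 and 0.562% in oxidized methyltransferase RNA. In such bulk RNA, fewer cells with a microRNA and less of it per cell cannot be told apart.

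miR-425-5p was far rarer. Its 23-nt sequence had 180 and 189 counts in the non-oxidized control libraries, 44 and 40 in non-oxidized methyltransferase RNA, 6 and 17 in oxidized methyltransferase RNA, and 0 and 0 in oxidized control RNA. The non-oxidized control libraries were the highest and the groups did not overlap. As a share of listed counts this is 0.00334 and 0.00285%, then 0.00120 and 0.000819%, then 0.000194 and 0.000695%, and 0 counts in the oxidized control libraries allow a share of up to 0.000684 and 0.00102% (3 counts of the total).

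**Figure D1:**
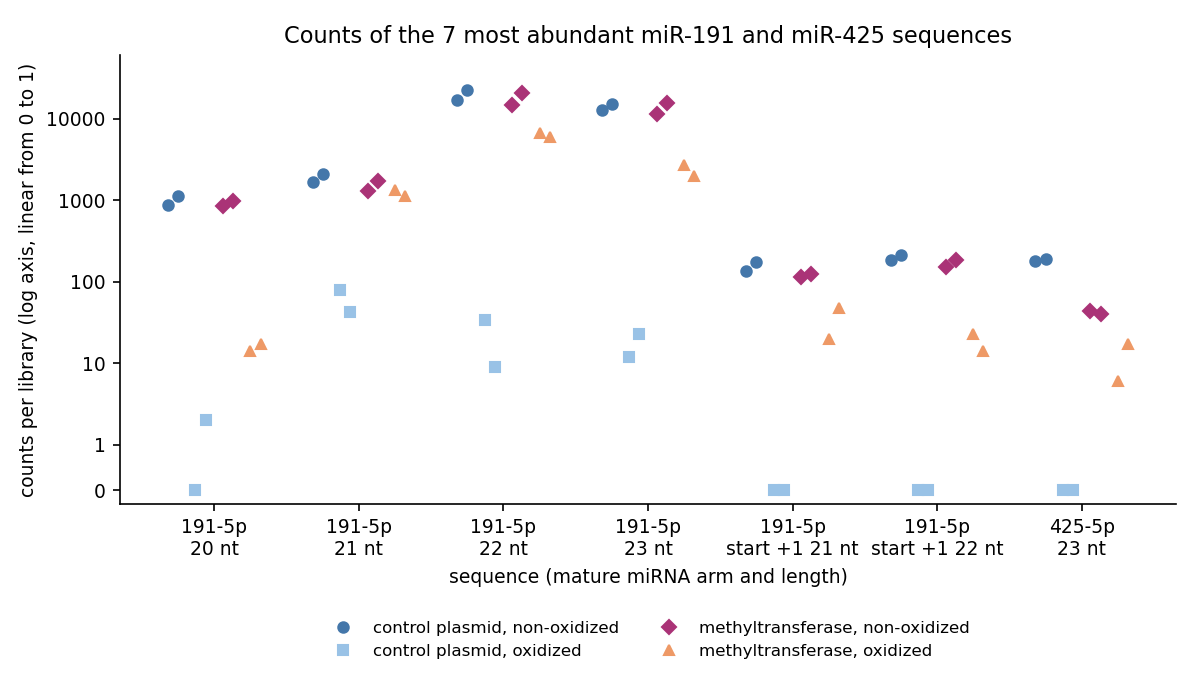
Counts per library (log axis, linear between 0 and 1) of the 7 member sequences with a mean of at least 50 counts, with 2 points per group. The 22-nt form is the most abundant of miR-191-5p in non-oxidized RNA, and the start +1 and miR-425-5p sequences are at 0 in both oxidized control libraries. The 21-nt form has overlapping raw counts, not scaled to listed totals, before and after oxidation with the methyltransferase.

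The 22-nt form, 1 base shorter than the RefSeq sequence, was the most abundant miR-191-5p sequence in every group other than oxidized control RNA, where the 21-nt and 18-nt forms stood above it. It had 16719 and 22432 counts before oxidation with the control plasmid, 34 and 9 in oxidized control RNA, 14665 and 20479 in non-oxidized methyltransferase RNA, and 6628 and 5997 in oxidized methyltransferase RNA. The 23-nt form came next, with 12808 and 15185, then 12 and 23, then 11298 and 15616, and finally 2668 and 1954 in the same order of groups. In both forms the oxidized control libraries stood far below every other library, and the oxidized methyltransferase libraries lay between these and the non-oxidized ones.

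The 21-nt form followed another pattern. It had 1688 and 2068 counts in the non-oxidized control libraries, 79 and 42 in oxidized control RNA, 1307 and 1732 in non-oxidized methyltransferase RNA, and 1323 and 1120 in oxidized methyltransferase RNA. The raw counts of the last pair of groups overlapped, but their listed totals differed (3654639 and 4887022 against 3100971 and 2446036). Scaled, the log2 change was -0.57 with TMM and 0.32 under total counts, neither of them called. The 20-nt form had 872 and 1131, then 0 and 2, then 841 and 984, and then 14 and 17 counts. It was thus near 0 in both oxidized groups. The 18-nt and 19-nt forms were rare in every library, at 26 to 60 counts and 3 to 110 counts.

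The start +1 form of 21 nt had 136 and 176 counts in the non-oxidized control libraries, 113 and 123 in non-oxidized methyltransferase RNA and 20 and 48 in oxidized methyltransferase RNA. The start +1 form of 22 nt had 185 and 210, 150 and 185, and 23 and 14 counts in these groups. Both had 0 counts in each oxidized control library, and their non-oxidized libraries did not overlap with the oxidized ones. The C1T pair was the rarest, with 2 to 37 counts per sequence outside the oxidized control RNA and 0 within it.

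The comparison between plasmids in oxidized RNA asks which sequences stay countable after periodate when the methyltransferase was present. It was tested with edgeR on the counts of all 9851 sequences that passed the filter on low counts, with TMM scaling, and sequences count as called below an adjusted p (Benjamini-Hochberg) of 0.05. All 11 members passed the filter, and 9 of 11 were higher with the methyltransferase, against 42.3% of all sequences tested. Under total counts 6 were called higher and 2 lower. The median log2 fold change was 6.50 over the members, 6.49 over the mature microRNA sequences and 0.82 over all sequences tested. With sequences at 0 in oxidized control RNA set to their bound, 5 of them members, these medians were 2.66, 3.25 and 0.78. TMM factors of the oxidized control libraries were 7.05 and 7.22, against 0.307 to 0.886 in the other libraries, so that fold changes depend on the scaling. With total counts alone the median of all sequences moved by -2.99.

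The 22-nt form was higher by 8.38 ± 0.58 on the log2 scale (SE, adjusted p = 1.05e-06) and the 23-nt form by 7.04 ± 0.56 (adjusted p = 2.14e-06). The 21-nt form was higher by 4.47 ± 0.41 (adjusted p = 4.91e-06), which is 22.2-fold. All of these passed under total counts too, at 5.38, 4.02 and 1.45. With mature microRNA sequences fitted alone, the 22-nt and 23-nt forms had 4.31 and 3.13 and passed, while the 21-nt form had 0.44 and did not (adjusted p = 0.267). The 20-nt form was higher by 3.86 ± 0.80 (adjusted p = 0.00176), at 2.70 without oxidized control replicate 1 and 6.87 without replicate 2. With 31 counts against 2, its scaled ratio was 16.6 (95% interval 4.24 to 144 from counting alone), and under total counts the log2 value of 1.01 did not pass (adjusted p = 0.348), nor did 0.067 with mature sequences alone (adjusted p = 0.973).

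For sequences at 0 in both oxidized control libraries, the fold is a lower bound against 3 counts per library. It was computed under TMM scaling, and no bound was computed under total counts. With the methyltransferase, the start +1 form of 21 nt was at least 12.4-fold higher (adjusted p = 0.000167) and that of 22 nt at least 6.31-fold higher (adjusted p = 0.00012). The start +1 form of 22 nt did not pass with mature microRNA sequences alone (adjusted p = 0.0553). miR-425-5p was at least 4.24-fold higher (adjusted p = 0.00132, and 0.0505 under total counts). As a share of listed counts, miR-425-5p was at 0.000194 and 0.000695% in oxidized methyltransferase RNA. On that scale, 3 counts in oxidized control RNA stand for 0.000684 and 0.00102%, so no excess is bounded there. Few counts also lie behind the start +1 form of 22 nt (23 and 14 in oxidized methyltransferase RNA). The C1T sequences had 16 and 19 (22 nt) and 9 and 2 (23 nt), so these bounds too rest on the TMM scaling. The bounds of the C1T sequences were at least 6.19-fold higher at 22 nt and at least 1.79-fold higher at 23 nt. The 18-nt form, with 43 and 27 counts in control and 26 and 51 in methyltransferase RNA, was not called (0.31 ± 0.54, adjusted p = 0.698). The 19-nt form was not called either (-0.74 ± 0.69, adjusted p = 0.448), and under total counts both were past the threshold in the lower direction, at -2.70 and -3.74.

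In the authors' deposited table, a signed fold change below 0 means lower in oxidized control than in oxidized methyltransferase RNA. The authors' deposited table gives -388.9 for the 22-nt form (adjusted p = 1.751e-50), -158.5 for the 23-nt form, -26.0 for the 21-nt form, -19.0 for the 20-nt form and -76.6 for miR-425-5p. For the 18-nt form the authors' deposited table gives -1.38 with an adjusted p of 0.646.

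Before oxidation the plasmids were compared to learn whether the methyltransferase plasmid itself moved the level of these microRNAs. No member (0 of 11) was called, nor was any other sequence (0% of all tested) by edgeR. At an unadjusted p under 0.05 there were 858 of all 9851 sequences and 1 of the members, and the DESeq2 Wald test called that same member. This was miR-425-5p, at -2.15 ± 0.57 (unadjusted p = 0.00334, adjusted p = 0.302, and 0.0133 by DESeq2), with 44 and 40 counts against 180 and 189. The miR-191-5p sequences lay between -0.59 and 0.24, and 7 of the 10 took the other sign under total counts. The median was -0.26 over all members, -0.63 over the mature microRNA sequences and 0.05 over all sequences tested.

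The ratio of the pair within a library needs no scaling between libraries. The log2 ratio of miR-191-5p to miR-425-5p member counts was 7.50 and 7.78 in non-oxidized control RNA, 9.34 and 9.94 in non-oxidized methyltransferase RNA, and 10.8 and 9.09 in oxidized methyltransferase RNA. It was higher with the methyltransferase before oxidation, by 2.00, without overlap, at an exact permutation p of 0.333, the smallest that 2 against 2 allow. Between the 2 methyltransferase groups the ratios overlapped (exact p = 1). It has no value in oxidized control RNA, where miR-425-5p was at 0.

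Few counts of either microRNA were left in control RNA after oxidation. Of the members, 10 of 11 were lower after oxidation, against 46.4% of all sequences tested. With mature microRNA sequences fitted alone, 6 members were called lower and 2 higher. The median log2 fold change was -9.93 over the members, -8.69 over the mature microRNA sequences and -1.14 over all sequences tested. With sequences at 0 in a compared group set to their bound, 5 of them members, these medians were -6.04, -5.76 and -0.82. The 22-nt form was lower by -10.28 ± 0.62 (adjusted p = 3.20e-07), the 23-nt form by -9.93 ± 0.62 (adjusted p = 3.64e-07) and the 21-nt form by -5.37 ± 0.42 (adjusted p = 1.00e-06). The 21-nt value was -0.95 under total counts (adjusted p = 0.0308), and with mature microRNA sequences alone it was 0.81, in the other direction (adjusted p = 0.0641). The 19-nt form was lower by -2.90 ± 0.65 (adjusted p = 0.00217), but its total-count value was 1.54, in the other direction. The 18-nt form was not called (-0.92 ± 0.54, adjusted p = 0.156), and under total counts it was called higher, at 3.47.

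Sequences at 0 in oxidized control RNA again give bounds, computed under TMM scaling. The start +1 forms were at least 65.7-fold (21 nt) and at least 83.2-fold (22 nt) lower after oxidation, and miR-425-5p was at least 77.8-fold lower. The 20-nt form, at 2003 counts against 2, had a scaled ratio of 1310 (95% interval 363 to 10800 from counting alone).

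The few miR-191-5p counts of oxidized control RNA had another length profile. Over all listed sequences that begin with the first 16 nt of miR-191-5p, the count-weighted mean length was 20.5 and 20.6 nt there, and 22.4 to 22.5 nt in the other 6 libraries. The 21-nt length held 42.0 and 35.0% of these counts and the 18-nt length 22.3 and 22.5%, out of 193 and 120 counts. In non-oxidized control RNA the same lengths held 4.44 and 4.33%, and 0.158 and 0.0835%. The mean lengths did not overlap between oxidized control RNA and either of the other groups it was compared with (exact permutation p = 0.333 for each, the smallest possible).

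**Figure D2:**
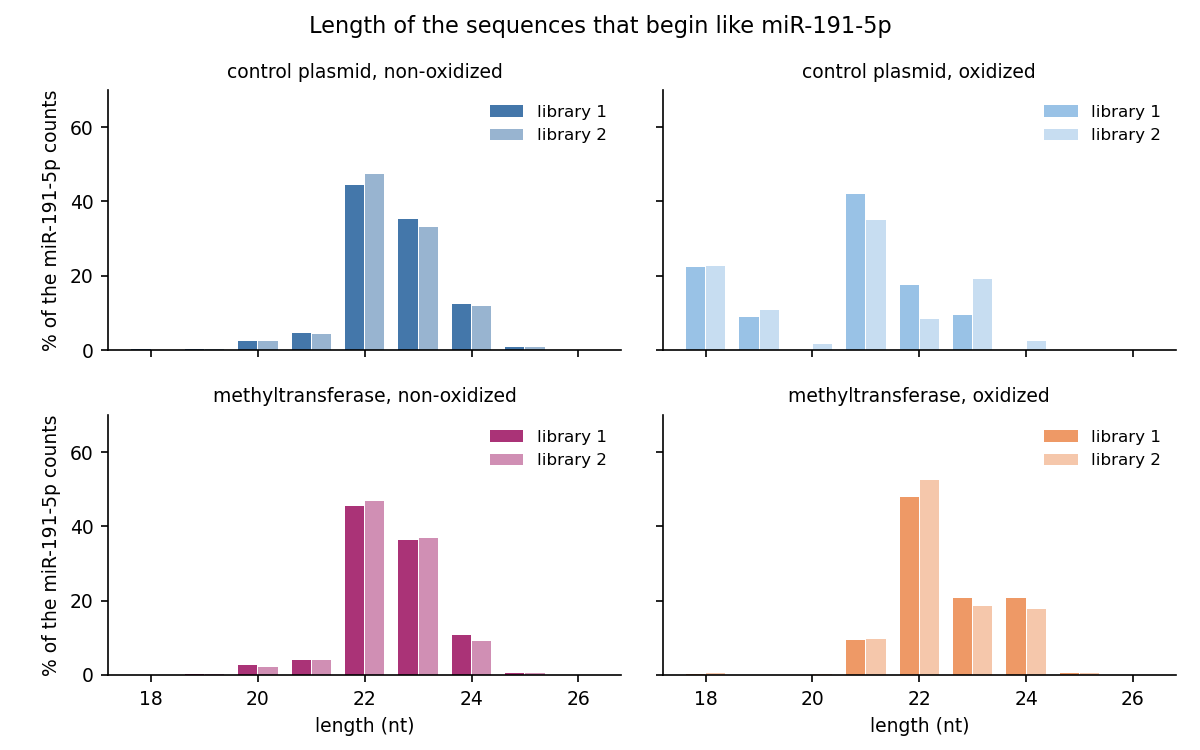
Share of counts (y axis, %) by length (x axis, nt) among all listed sequences that begin with the first 16 nt of miR-191-5p, with 1 panel per group and 1 bar per library. The 22-nt length leads in 3 groups, while the 193 and 120 counts of oxidized control RNA are led by 21 nt.

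With the methyltransferase, the change on oxidation differed in size among the sequences of miR-191-5p, and their length, last base and 3′ end vary together. Here 7 of 11 members were lower after oxidation, against 11.2% of all sequences tested. Among all tested sequences with a microRNA hit the share called lower was higher, at 31.0 to 60.7% depending on the last base. The median log2 fold change was -2.06 over the members, -1.39 over the mature microRNA sequences and 0.09 over all sequences tested. The 20-nt form fell the furthest, by -6.10 ± 0.60 (adjusted p = 4.76e-05), a 68.8-fold difference. Of the other full-start forms, the 19-nt form was lower by -3.31 ± 0.68 (adjusted p = 0.00705), the 23-nt form by -2.80 ± 0.45 (adjusted p = 0.00133) and the 22-nt form by -1.72 ± 0.42 (adjusted p = 0.0196). The 21-nt form had -0.57 ± 0.35 (adjusted p = 0.343, and a log2 value of 0.32 under total counts) and the 18-nt form -0.02 ± 0.54 (adjusted p = 0.986).

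Among the start +1 pair, the 22-nt sequence was lower by -3.44 ± 0.48 (adjusted p = 0.000734) and the 21-nt sequence by -1.98 ± 0.56 (adjusted p = 0.0429). The C1T sequences had -2.51 ± 0.71 at 23 nt (adjusted p = 0.0424) and -0.96 ± 0.58 at 22 nt (adjusted p = 0.338). The call of the 21-nt start +1 sequence was lost under total counts (-1.11, adjusted p = 0.204), with mature sequences alone (-0.51, adjusted p = 0.460), under 3 other settings (adjusted p = 0.0807 to 0.141) and without any 1 of 5 libraries (adjusted p = 0.0709 to 0.193). These were both libraries of each non-oxidized group and oxidized methyltransferase replicate 1. miR-425-5p had -2.06 ± 0.61 and was not called (adjusted p = 0.0513). It passed with DESeq2 size factors (adjusted p = 0.0364), limma-voom (0.0278), the DESeq2 Wald test (0.0119) and a replicate block (0.0352), and without either oxidized control library (0.0395 and 0.0388) or oxidized methyltransferase replicate 2 (0.0302). With mature microRNA sequences alone the 22-nt form had -0.25 and was not called (adjusted p = 0.626). Nor was it called under upper-quartile scaling (-0.94, adjusted p = 0.12). The same held with at least 10 counts in every library of at least 2 groups (-1.22, adjusted p = 0.0678). Under total counts 4 of 11 were called. The count was also 4 without the library of non-oxidized methyltransferase replicate 2, or without oxidized methyltransferase replicate 1. The call of the 22-nt form was lost without either of these (adjusted p = 0.10 and 0.131), without oxidized methyltransferase replicate 2 (0.124) and under total counts (-0.83, adjusted p = 0.150).

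**Figure D3:**
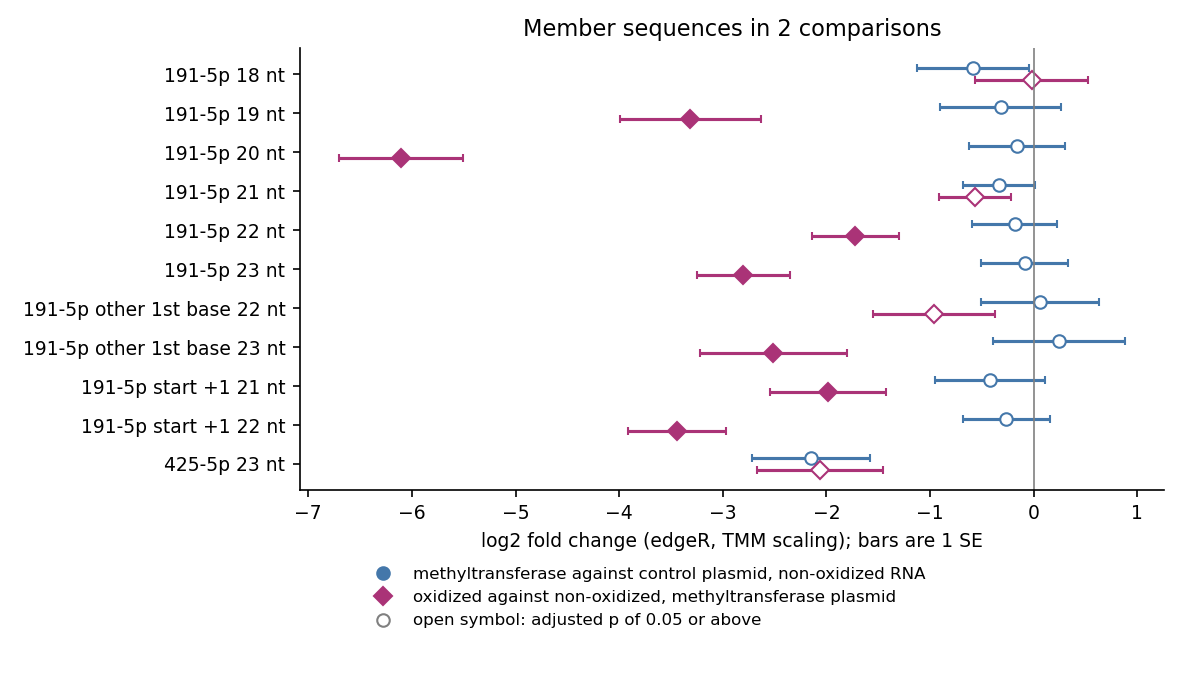
Log2 fold change with 1 SE (x axis) for the 11 member sequences (y axis) between plasmids in non-oxidized RNA (circles) and between oxidized and non-oxidized methyltransferase RNA (diamonds), filled where the adjusted p was under 0.05. The diamond of the 20-nt form lies furthest left, at -6.10, and all circles are open. The names "other 1st base" stand for the C1T sequences.

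In the authors' deposited table, a signed fold change above 0 in this comparison means higher in non-oxidized methyltransferase RNA. The authors' deposited table gives 69.2 for the 20-nt form (adjusted p = 3.247e-25), 6.70 for the 23-nt form, 3.22 for the 22-nt form, 1.44 for the 21-nt form (adjusted p = 0.495) and 4.40 for miR-425-5p (adjusted p = 0.0132).

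Because forms of 1 microRNA share a library and its scaling, they were also compared with each other inside a library. Per 100 counts of the 22-nt form there were 5.74 and 4.81 counts of the 20-nt form in non-oxidized methyltransferase RNA and 0.211 and 0.284 after oxidation. The 21-nt form went the other way, from 8.91 and 8.46 to 19.96 and 18.7. The 23-nt form had 77.0 and 76.3 before and 40.3 and 32.6 after oxidation. None of these 3 pairs of groups overlapped, and non-oxidized control RNA, at 5.22 and 5.04, 10.1 and 9.22, and 76.6 and 67.7, was near the non-oxidized methyltransferase RNA.

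edgeR's test of differential usage compares each sequence with the other sequences of the same start and hairpin, and was added after the data were seen. In methyltransferase RNA it called 102 of 715 sequences (14.3%) between oxidized and non-oxidized libraries, and the miR-191-5p group as a whole passed (adjusted p = 9.41e-08), as did 42.1% of the 214 groups. Relative to its group, the 20-nt form was lower by -4.24 on the log2 scale (adjusted p = 6.45e-08). This value stayed between -4.54 and -3.98 with any 1 library left out, each time past the threshold, and was -4.25 under total counts. The 18-nt form was higher by 1.85 relative to its group (adjusted p = 0.0435). It had 31 and 37 counts before oxidation and 26 and 51 after it, and its own log2 change was -0.02. The 21-nt form had 1.30 (adjusted p = 0.0797), the 23-nt form -0.94 (adjusted p = 0.259) and the 22-nt form 0.15 (adjusted p = 0.994), none of which passed. Between plasmids in non-oxidized RNA, no sequence was called (0 of 715, 0%), and the relative values of the 18-nt to 23-nt forms lay between -0.40 and 0.11.

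**Figure D4:**
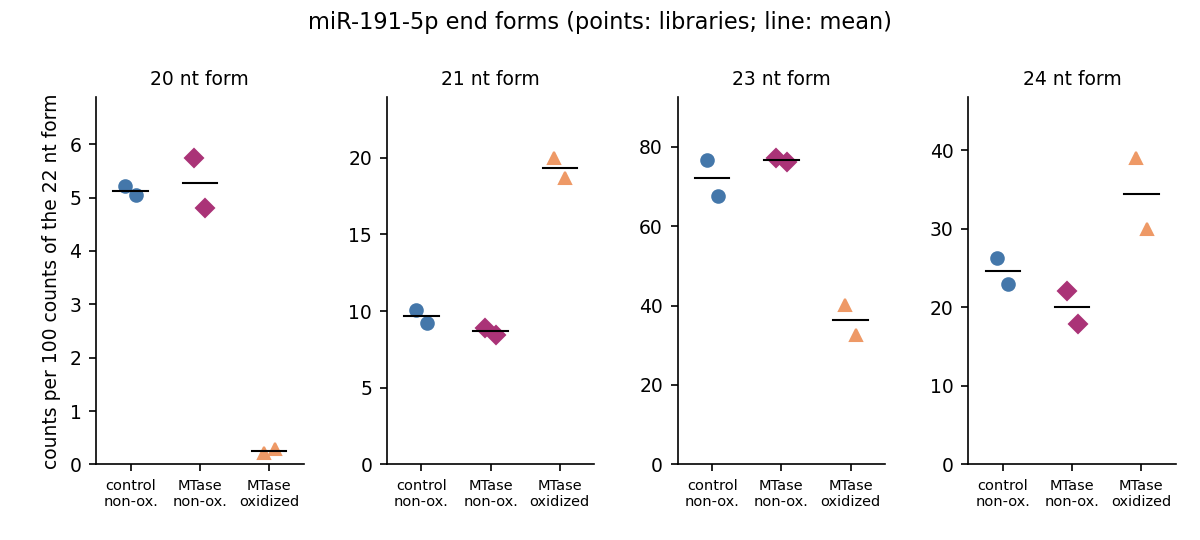
Counts of the 20-, 21-, 23- and 24-nt forms per 100 counts of the 22-nt form of miR-191-5p (y axes from 0, 1 per form), with a point per library and a line at the mean. MTase stands for the methyltransferase plasmid; the 20-nt and 23-nt forms sit lower, and the 21-nt and 24-nt forms higher, after oxidation.

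The forms differ in their last base, which is the base that carries the 3′ end. Among the members, the 4 that end in G were all called lower after oxidation of methyltransferase RNA (median -3.12). Of these, the 23-nt form, the C1T sequence of 23 nt and the start +1 form of 22 nt have the same 3′ end. The 2 that end in C were not called (median -0.29), 2 of the 3 that end in T were called lower (median -1.72), and 1 of the 2 that end in A was (median -2.69). Of the counts of the miR-191-5p member sequences, the share that ends in G went from 43.2 and 42.8% before oxidation to 25.3 and 21.5% after it. Sequences without a mature hit are not counted in these shares. The share that ends in C went from 4.69 and 4.50% to 12.6 and 12.7%, and that ending in T from 51.9 and 52.5% to 62.1 and 65.7%. Most of the G-ending counts belong to the 23-nt form.

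The sequences that end in G also had the lowest median among the other microRNA sequences of the table, with those of both hairpins left out. Of 173 tested sequences with a microRNA hit that end in G, 59.5% were called lower, at a median log2 fold change of -2.19. The 118 that end in C had 36.4% (median -1.36), the 169 in A 30.8% (median -1.09) and the 385 in T 33.8% (median -1.13). Sequences of 1 microRNA share a source and are not independent, so these are descriptions. In pairs that differ by a single added 3′ base, the longer one had the lower value in 67 of 99 pairs when the added base was G, in 124 of 222 when it was T, in 22 of 61 when it was C and in 33 of 112 when it was A. From Mir191 and Mir425 the longer one was lower in 5 of 5 pairs with G (median difference -1.46), in 2 of 5 with T (0.53), in 0 of 2 with C (0.45 and 5.54) and in the 1 pair with A (-3.29).

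An interaction test compares the change on oxidation between the plasmids. It called 9 of 11 members as higher, against 39.6% of all sequences tested, and under total counts 6 as higher and 2 as lower. The 22-nt form had 8.56 ± 0.68 (adjusted p = 4.27e-06), the 23-nt form 7.13 ± 0.67 (adjusted p = 1.04e-05) and the 21-nt form 4.80 ± 0.52 (adjusted p = 2.54e-05). The 18-nt and 19-nt forms had 0.90 ± 0.77 and -0.42 ± 0.90 and were not called, and under total counts they were called lower, at -2.61 and -3.97. With mature microRNA sequences alone, 2 members were called higher and 2 lower, and the 21-nt form had 0.088 (adjusted p = 0.880).

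Much of what the hairpins gave was listed outside the mature hits. On the 5p arms, sequences that hit the precursor alone extend past the RefSeq 3′ end with the next bases of the hairpin. The most abundant of each 5p arm are shown with the bases beyond the RefSeq mature end in capitals.
miR-191-5p, 24 nt: caacggaatcccaaaagcagctgT
miR-425-5p, 25 nt: aatgacacgatcactcccgttgaGT
The 24-nt form of miR-191-5p had 4390 and 5156 counts in the non-oxidized control libraries, 0 and 3 in oxidized control RNA, 3244 and 3653 in non-oxidized methyltransferase RNA and 2582 and 1798 in oxidized methyltransferase RNA. Its change on oxidation with the methyltransferase was -0.93 ± 0.47 and not called (adjusted p = 0.243). Per 100 counts of the 22-nt form it had 22.1 and 17.8 before and 39.0 and 30.0 after oxidation. Its scaled ratio between plasmids in oxidized RNA was 1570 (95% interval 536 to 7610 from counting alone).

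For miR-425-5p the 25-nt form, not the RefSeq one, was the main product. It had 4189 and 3427 counts in the non-oxidized control libraries, 1057 and 1313 in non-oxidized methyltransferase RNA, 250 and 331 in oxidized methyltransferase RNA and 0 and 0 in oxidized control RNA. Sequences that hit the precursor alone held 91.4 to 94.7% of the miR-425-5p counts in the 6 libraries that had any, and the 23-nt mature hit held 2.15 to 4.87%. Under TMM scaling the 25-nt form was at least 103-fold higher with the methyltransferase in oxidized RNA (adjusted p = 2.44e-06). On oxidation with the methyltransferase it was lower by -2.25 ± 0.41 (adjusted p = 0.00414). Between plasmids before oxidation it had -1.72 ± 0.40 and did not pass (adjusted p = 0.269).

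The ratio of the pair therefore rests on which sequences are counted. With every listed sequence that begins with the first 16 nt of its arm, the log2 ratio of miR-191-5p to miR-425-5p was 3.03 and 3.63 in non-oxidized control RNA, 4.76 and 4.92 in non-oxidized methyltransferase RNA, and 5.66 and 4.98 in oxidized methyltransferase RNA. These are lower than the ratios of the mature hits by more than 4 in each library, and the order of the groups before oxidation was the same.

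The other arm of Mir425 was listed through 2 sequences that start 1 base before the RefSeq mature arm and hit the precursor alone. The 22-nt one had 142 and 167 counts in the non-oxidized control libraries, 66 and 107 in non-oxidized methyltransferase RNA, 70 and 32 in oxidized methyltransferase RNA and 0 in both oxidized control libraries. Under TMM scaling it was at least 17.1-fold higher with the methyltransferase in oxidized RNA (adjusted p = 4.16e-05). Its change on oxidation with the methyltransferase was not called (-1.05 ± 0.49, adjusted p = 0.207).

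A further 27 listed sequences began with the 16 nt of miR-191-5p but had no annotation hit, of which 23 were tested. Between plasmids in oxidized RNA 23 of 23 were higher (42.3% of all sequences tested), and on oxidation with the methyltransferase 2 of 23 were lower (11.2%). Since a sequence is listed only with counts in oxidized methyltransferase RNA, these counts are in part set by the listing and are descriptions. Together they held 5.81 and 5.99% of the miR-191-5p counts in oxidized methyltransferase RNA, and 3.47 and 3.10% in non-oxidized methyltransferase RNA.

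Other microRNAs used as references in expression assays were set beside miR-191-5p by their most abundant sequence with a mature hit. All 10 were higher with the methyltransferase in oxidized RNA, against 42.3% of all sequences tested, and all 10 lower on oxidation of control RNA, against 46.4%. On oxidation with the methyltransferase, 6 of 10 were lower, against 11.2%. Among all tested sequences with a microRNA hit, 31.0 to 60.7% were called lower, depending on the last base. The median of the 10 was -2.35 (-1.39 over the mature microRNA sequences). miR-16-5p was the lowest, at -6.75 ± 0.48, and miR-320-3p the highest, at -0.11 ± 0.37, with miR-191-5p at -1.72 between miR-103-3p (-2.11 ± 0.36) and miR-423-3p (-0.84 ± 0.54). The differences between these microRNAs were not tested. Of 18 beta-cell microRNAs in a second list, 15 were tested. miR-204-5p, miR-148a-3p and miR-127-3p had no listed sequence with a mature hit. Of the 15 tested, 15 were higher in the first comparison and 9 were lower in the last, against the same 42.3 and 11.2%. Their median in the last was -2.51. Since a sequence is listed only with counts in oxidized methyltransferase RNA, the higher calls of both lists are in part set by the listing.

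**Figure D5:**
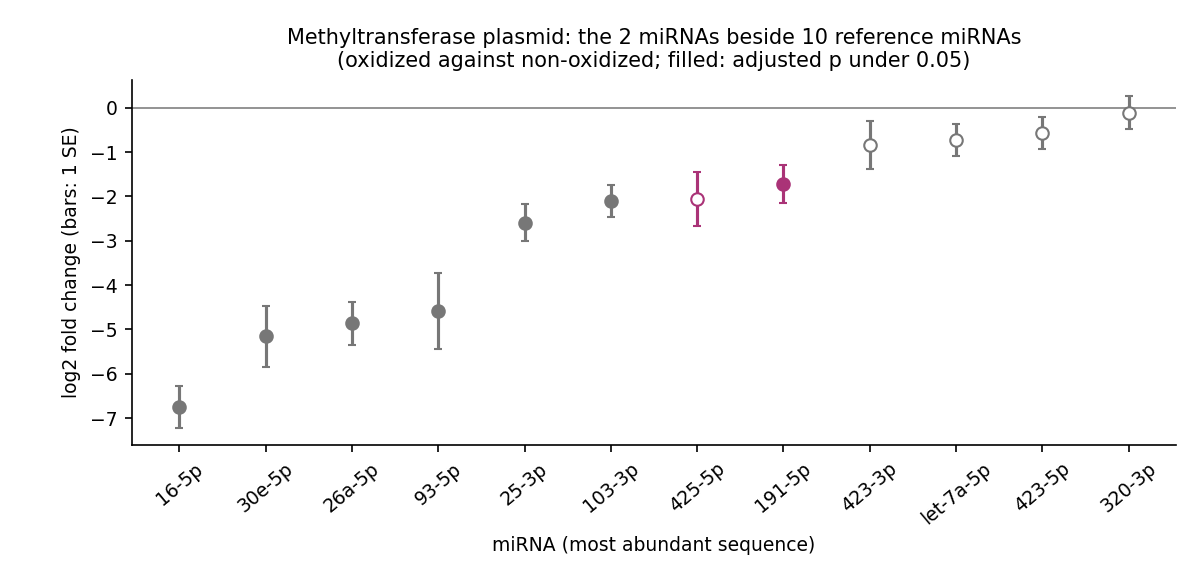
Log2 fold change with 1 SE between oxidized and non-oxidized methyltransferase RNA (y axis) for the most abundant sequence with a mature hit of 12 microRNAs (x axis), filled where the adjusted p was under 0.05, with miR-191-5p and miR-425-5p in colour. The order runs from miR-16-5p at -6.75 to miR-320-3p at -0.11.

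By pattern over the 8 libraries, the microRNAs nearest to miR-191-5p were miR-574-5p, miR-98-5p and miR-151-5p. The measure is the root mean square difference of centred log2(CPM + 1) values between the most abundant sequences with a mature hit (for miR-425-5p the 23-nt form, not the 25-nt one), and was 0.247, 0.334 and 0.518 among 122 candidates. Nearest to miR-425-5p were miR-484 (0.435), miR-301a-3p (0.452) and miR-28a-5p (0.586). All 3 of these had 0 counts in both oxidized control libraries, as miR-425-5p did. Those counts are part of the measure that picked them, so this is no separate result.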

How the data were processed

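Per the labels' protocols, each library started from 5 ng of total RNA (QIAseq miRNA kit). The deposited table holds 12608 lines with whole-number read counts per distinct sequence in 8 libraries, per the file headers; lines repeating a sequence were merged into 11568. Signed fold changes in the authors' deposited table were treated as a score, and the authors' deposited adjusted p-values were used as given. Aligner, build, use of molecular identifiers and counting tool are not given in the sources used here. Members and lists were chosen with earlier results of these data known.

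Counts of all sequences were fitted in 1 model of the 4 groups with edgeR 4.0.16 (quasi-likelihood test, TMM, filterByExpr, R 4.3.3) and p-values were adjusted by Benjamini-Hochberg over the 9851 sequences tested. DESeq2 1.42.0, limma 3.58.1 (voom), other scalings, filters, feature sets and libraries left out were alternatives. Fits were tested on simulated data. Every member is named; those with a mean of at least 50 counts are given per library. Listed totals, not library depths, limit precision: Wilson intervals (95%) and floors (3 counts) cover counting error only. Libraries of a group differed by more than sampling noise (chi-square per degree of freedom 13.3 to 25.7). C1T means T at position 1 of the RefSeq mature sequence.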

Additional observations from a re-analysis of the deposited data

Results flagged for a closer look

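The change on oxidation differed between plasmids, by the interaction test, for 9 of the 11 member sequences. All 9 were called higher, with a larger loss in control RNA, against 39.6% of all sequences tested. Under total counts 6 members were called higher and 2 lower. With TMM scaling, the median over the members was below the 7.187 of the mature microRNA sequences. The log2 interaction values were 4.02 for the 20-nt form, 4.80 for the 21-nt form, 8.56 for the 22-nt form and 7.13 for the 23-nt form of miR-191-5p. They were 8.48 and 7.37 for the start +1 forms of 21 and 22 nt, 7.0 and 5.10 for the C1T sequences of 22 and 23 nt, and 8.65 for miR-425-5p. The last 5 values belong to sequences at 0 in oxidized control RNA and depend on the prior count of the fit. Their bounds against 3 counts per library, under TMM scaling, were at least 16.7-, 7.58-, 5.92-, 1.51- and 18.8-fold. The interaction of the 20-nt form did not pass under total counts (0.63, adjusted p = 0.616). It was 7.05 without oxidized control replicate 2 and -0.47 with mature microRNA sequences alone, where the 21-nt form did not pass either (0.088, adjusted p = 0.880).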

How the results depend on the processing

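With mature microRNA sequences fitted alone, 5 members were called between plasmids in oxidized RNA (3 higher, 2 lower) and 4 in the interaction (2 higher, 2 lower), where the 20-nt form turned to -0.47. With only the libraries compared, 3 of the 5 members tested were called between plasmids in oxidized RNA, since fewer passed the filter. With counts summed by annotation hit each arm is 1 feature, and both (2) were called in every comparison other than that between plasmids in non-oxidized RNA, where neither was. With the member sequences kept apart, the DESeq2 Wald test called 1 in that comparison. On oxidation with the methyltransferase, 4 members were called under total counts, under upper-quartile scaling and at an adjusted p under 0.01, and 4 to 8 with 1 library left out.

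Several values changed sign. These include the 20-, 21-, 22- and 23-nt forms and the start +1 forms of 21 and 22 nt between plasmids in non-oxidized RNA. With TMM scaling they lay between -0.42 and -0.09. In the order named, total counts gave 0.38, 0.19, 0.34, 0.43, 0.12 and 0.26, and mature sequences alone 0.53, 0.35, 0.51, 0.60, 0.27 and 0.42. In this comparison the 23-nt form also had 0.014 under upper-quartile scaling, 0.020 with at least 10 counts in every library of at least 2 groups, and 0.039 with only the libraries compared. With 1 library left out, the 20-nt form ranged from -0.34 to 0.0032, the 22-nt form from -0.39 to 0.0030 and the 23-nt form from -0.28 to 0.044. On oxidation with the control plasmid, the 21-nt form, called lower at -5.37, had 0.81 under mature sequences alone. With the methyltransferase it had 0.32 under total counts, 0.21 under upper quartile and 0.90 under mature sequences alone. With mature microRNA counts as denominator, the miR-191-5p share differed by -0.702 percentage points between plasmids in oxidized RNA, against 0.321 over all listed counts, and by 0.309 on oxidation of control RNA, against -0.573.

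On oxidation with the methyltransferase, the mean length with microRNA hits alone moved by -0.0229 nt for miR-191-5p and by 0.0143 nt for miR-425-5p. With 1 library left out it moved by -0.0474 to 0.0529 nt and by -0.0425 to 0.0421 nt. The log2 ratio of the pair then ranged from -0.55 to 1.16, usage of the start +1 form of 21 nt from -0.43 to 0.83, and that of the miR-425-5p 23-nt form from -0.49 to 0.52. The cause of these changes was not tested.

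Same-numbered replicates deviated together in some pairs of groups (correlations 0.379, 0.128 and 0.109) and not in the others (-0.031 to 0.051), so the numbers were not taken as pairs. With a replicate block, 9, 0, 10, 8 and 9 members were called in the 5 comparisons, the eighth being miR-425-5p on oxidation with the methyltransferase (adjusted p = 0.0352). Depth limits miR-425-5p, at 6 and 17 counts in oxidized methyltransferase RNA, and every fold against oxidized control RNA.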
